A study of Mus musculus with 6 samples.

Results

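The genes described here are 37 components of the machinery that releases synaptic vesicles, out of 18560 genes in the count table. They were listed by name, with earlier results of these data known, and all 37 were found in the table. They comprise 7 synaptotagmins (Syt1, Syt4, Syt5, Syt6, Syt7, Syt11, Syt13), Doc2b, the SNARE proteins Snap25, Stx1a, Vamp1 and Vamp2, the disassembly factors Nsf and Napb, and the complexins Cplx1, Cplx2 and Cplx3. The vesicle proteins are Syp, Sv2a, Sv2b, Sv2c, Syngr1, Syngr3, Syn1, Syn2, Rab3a, Rab3b and Rab3c, with the Rab3 partner Rph3a. Rims1, Rims2, Unc13a, Unc13c, Bsn and Pclo belong to the active zone, and Snap91 and Amph to vesicle retrieval.

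RNA of single cells was counted in 6 libraries from the olfactory bulb of C57BL/6NJ mice, 2 libraries each from control, naris occluded and olfactory trained animals. Each library held the cells of 3 pooled mice of 14 weeks of age, males in replicate 1 and females in replicate 2. Occlusion closed a single nostril for 6 weeks, and the study took the occluded side as the deprived sample. Training was an odor discrimination task over 6 weeks, in which water deprived mice worked for water. The study's text mentions water deprivation for no other group. The labels give the controls as animals without manipulation, and the study states that bulbs of naive controls were sequenced. Another passage of its text calls the open side of occluded animals the control. Dissection took in some olfactory epithelium, so sensory neurons are present.

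The deposited annotations placed 51426 of 52549 barcodes in clusters and 21746 of them in 18 clusters of neurons. The libraries held between 11841160 and 17065083 UMIs (unique molecular identifiers, each standing for 1 captured RNA molecule), with a median of between 1028 and 1723.5 UMIs per cell. Of the 49931 distinct barcode sequences of annotated cells, 1461 occurred in 2 or more libraries. The immature cluster n04-Immature (3910 cells) held the highest mean of Sox11, at 2085 CPM (the UMIs of a gene in the summed cells of a cluster and library, scaled to a common total), and of Dcx, at 907 CPM. Cdhr1 was highest in the mitral and tufted cluster n17-M/TC-3, Th in the periglomerular cluster n05-PGC-2 and Omp, Cnga2 and Gng13 in the sensory neuron cluster n01-OSNs. Other listed markers went another way. Adcy3 (sensory neurons) and Slc18a2 (dopaminergic cells) were highest in n18-EPL-IN, the cluster of external plexiform layer (EPL) interneurons. Pvalb was highest there too, but Crh, also listed for EPL interneurons, in n17-M/TC-3 (186 CPM). Ddc was at 53.5 CPM in n05-PGC-2 and 85.0 CPM in the endothelial cluster EC1. Depth differed between clusters, from a median of 656 UMIs per cell in n13-AstrocyteLike and 690 in n14-GC-7, where 30.5% and 29.7% of UMIs were mitochondrial, to 3533 in n12-GC-6, where 6.35% were. The cluster n06-Transition, which the study counts among its developing cells, had a median of 730 UMIs and n07-GC-2 of 882, against 1668 in n04-Immature.

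At a synapse, transmitter is packed into vesicles that dock at the active zone and are primed by Munc13 and RIM proteins. SNARE proteins on the vesicle and on the plasma membrane zip together, complexins clamp and assist them, and the calcium sensor synaptotagmin triggers fusion within moments of an action potential. Granule and periglomerular cells of the olfactory bulb are inhibitory interneurons, many of them born in adult life, that release GABA largely from dendrites onto mitral and tufted cells, so new neurons must build this machinery as they mature.

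The first question was in which order the genes appear between n04-Immature and the 10 mature clusters of adult-born interneurons (the periglomerular clusters n08-PGC-3, n05-PGC-2 and n02-PGC-1, and the granule cell clusters n14-GC-7, n12-GC-6, n11-GC-5, n10-GC-4, n09-GC-3, n07-GC-2 and n03-GC-1). Counts were summed per library and cluster and scaled to CPM, and the mature level is the mean over these 10 clusters. The study kept n05-PGC-2 and n12-GC-6 in its adult-born lineages. Its discussion, however, describes both as made earlier in life and little replaced by adult neurogenesis. The clusters were built by the authors from the same expression values, so differences between clusters are described and not tested. The mature level was above the level of n04-Immature in all 6 libraries for 33 of the 37 genes. Among all genes of at least 20 CPM in either, 38.3% were, and among all genes with a UMI 24.9% were. The other genes were Doc2b (5 of 6 libraries), Rph3a (4 of 6), and Sv2b and Rims1 (1 of 6 each).

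Onset was expressed as the level of n04-Immature in percent of the mature level, for the 31 genes of at least 20 CPM in the mature mean. Their median was 31.5%, where the median over all 6884 genes of that level was 88.2%. Subtracting the free RNA level, described below, lowered the median of the 31 to 17.4% (Syt1 to 4.70% and Snap25 to 10.8%), and taking n07-GC-2 and n09-GC-3 alone as mature gave 45.6%. A gene was called late below 20%, early from 50% and intermediate between them. By this rule 8 genes were late (25.8%), 17 intermediate and 6 early (19.4%). Of all 6884 genes 5.62% were late and 79.7% early. With n07-GC-2 and n09-GC-3 alone as mature, 5 of 28 genes were late and 10 early, against 7.41% and 75.1% of all genes. Sv2c, Syt13 and Unc13c, with under 4 CPM in n04-Immature, entered through their mature level alone. At 20 CPM or more in the mature mean such a gene always falls below 20%, so their late class is no finding. Nearest to the boundaries, Syt4 (19.5%) was just inside the late class with Snap25 (23.0%) just outside it, and Amph (46.0%) and Syt11 (52.1%) lay on either side of 50%.

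The late genes were Sv2c (8.53%), Syt13 (9.38%), Unc13c (10.2%), Syt1 (12.3%), Syp (15.6%), Sv2a (16.2%), Syn2 (18.3%) and Syt4 (19.5%). The place of Unc13c rested on 1 cluster. Without n08-PGC-3 its mature mean was 15.8 CPM, under the 20 CPM needed, and its percent 25.2%. Leaving out any other mature cluster kept Unc13c between 9.21% and 10.6%. Syt4 became intermediate without n14-GC-7, n10-GC-4, n05-PGC-2 or n08-PGC-3 (20.1% to 22.0%), and Syn2 without n05-PGC-2 (20.04%). Of the intermediate genes, Syt7 became early without n05-PGC-2 (51.9%) and Rab3c without n08-PGC-3 (57.4%). Amph did so without n05-PGC-2 (50.6%) or n12-GC-6 (50.3%). Of the vesicle proteins listed above, Sv2c, Syp, Sv2a and Syn2 were late, and Rab3a, Rab3b, Rab3c, Syn1, Syngr1 and Syngr3 intermediate. The late class held the calcium sensor of fast release, the abundant membrane proteins synaptophysin and SV2A, and a synapsin, which tethers vesicles. The early genes were Syt11 (52.1%), Snap91 (52.6%), Bsn (58.1%), Stx1a (59.2%), Syt6 (68.3%) and Rims2 (72.2%). They include 2 scaffold genes of the active zone, the plasma membrane SNARE syntaxin-1A and the clathrin adaptor AP180 (Snap91). Of the other active zone genes, Unc13c was late, Pclo (33.7%) and Unc13a (42.0%) were intermediate and Rims1 was not placed. The SNARE genes Snap25 and Vamp2 were intermediate. Over libraries Stx1a ran from 29.5% to 86.7% and Rims2 from 41.3% to 90.4%. The 6 genes under 20 CPM that were not placed were Cplx3, Doc2b, Vamp1, Rph3a, Sv2b and Rims1.

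**Figure D1:**
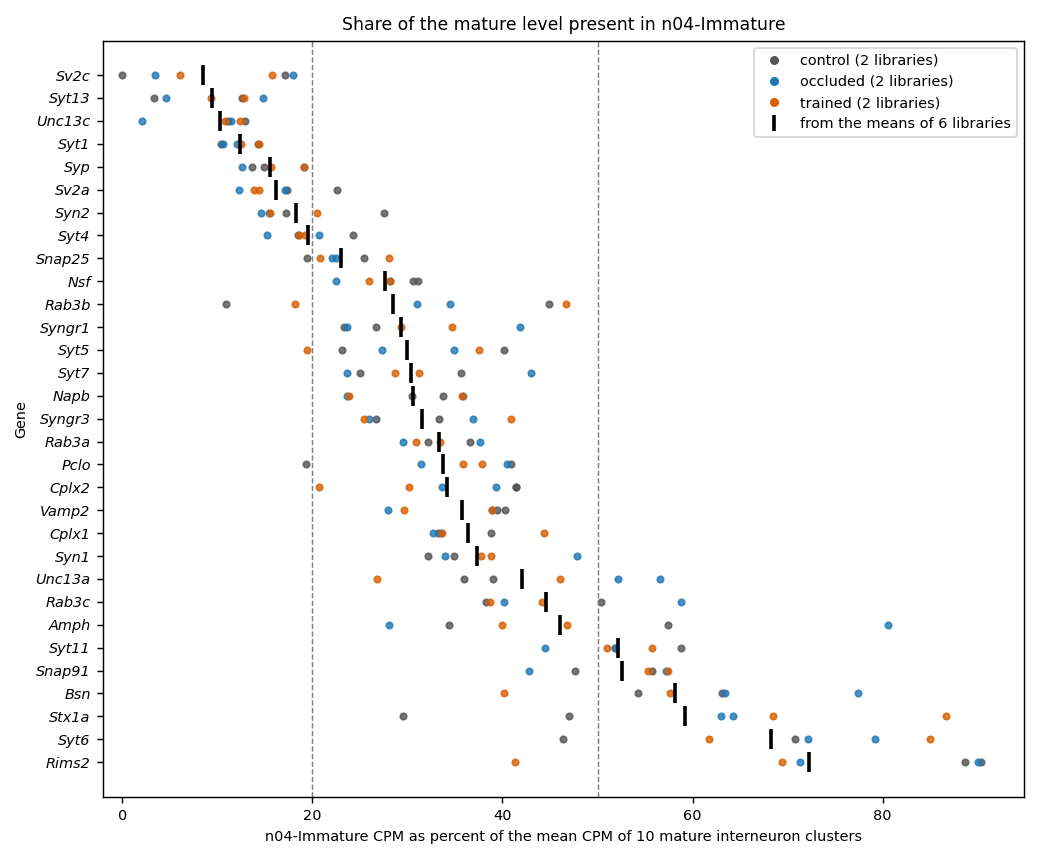
Level in n04-Immature in percent of the mean of 10 mature interneuron clusters (x axis, percent), for the 31 genes of at least 20 CPM in that mean. Points are the 6 libraries colored by condition, black ticks come from the means of 6 libraries, and dashed lines mark 20% and 50%. Sv2c stands lowest at 8.53% and Rims2 highest at 72.2%.

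RNA free in the cell suspension gives a low count of neuronal genes in every droplet, so each level was set beside the median CPM of 9 vessel and immune clusters of the same library. In n04-Immature, 27 of the 37 genes were above this level in all 6 libraries, against 31.2% of all genes with a UMI. Among genes of at least 20 CPM in n04-Immature or the mature mean it was 26 of 31, against 55.7% of 7529. Syt1 was, with 132 ± 21.8 CPM (SD, n = 6 libraries) over a free RNA level of 85.8 ± 22.2 CPM. Sv2c (2.37 ± 1.62 CPM), Vamp1 (2.07 ± 1.5 CPM) and Syngr1 (44.3 ± 7.02 CPM) were above it in 0 of 6 libraries. For Syngr1 the comparison is limited, because microglia, which are among the 9 clusters, carried it at 461 to 526 CPM. Nsf was above it in 3 libraries, Syt13 in 4, Unc13c in 2, Cplx3 and Doc2b in 1 each, and Rph3a and Sv2b in 5 each. For Unc13c the comparison is limited too, because the mural clusters Mural2 and Mural1, also among the 9, carried it at 47.5 and 38.1 CPM. Subtracting the free RNA level made 16 of the 31 placed genes late and 2 early, where 31.1% of the 3220 genes then at 20 CPM or more were late and 50.5% early, so how many genes count as late rests on that choice. The 16 include Sv2c, Syngr1 and Unc13c, whose means in n04-Immature lay under the free RNA level (4.07, 73.5 and 7.03 CPM). A negative remainder counted as late by the rule. For Syngr1 and Unc13c, whose comparison is limited as said, this class came from the reference clusters.

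The start region is shown for late genes Syt1, Syp and Sv2a, for the intermediate Rab3a, whose levels ran apart from Syt1 between clusters, and for Syn1, which encodes a synapsin. Capitals mark, on either strand, the GC box (GGGCGG), the E-box (CAGCTG), the cAMP response element (TGACGTCA) and the core of the RE1 element (TTCAGCACC). The sequences are from RefSeq on GRCm38.p6, from 250 bases before to 50 after a start, 5′ to 3′ on the strand of the gene. Syt1 and Rab3a have a second start in the table that is not shown, each with an E-box and no GC box in its window. Those shown lie at chr10:109010926-109011225 (minus strand, Syt1), chrX:7638330-7638629 (plus strand, Syp), chr3:96180977-96181276 (plus strand, Sv2a), chr8:70754453-70754752 (plus strand, Rab3a) and chrX:20920869-20921168 (minus strand, Syn1).
Syt1: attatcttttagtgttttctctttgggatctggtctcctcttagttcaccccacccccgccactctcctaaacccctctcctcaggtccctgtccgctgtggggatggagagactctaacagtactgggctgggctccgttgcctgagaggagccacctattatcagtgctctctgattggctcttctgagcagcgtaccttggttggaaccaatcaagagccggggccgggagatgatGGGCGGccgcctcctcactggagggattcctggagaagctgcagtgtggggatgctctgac
Syp: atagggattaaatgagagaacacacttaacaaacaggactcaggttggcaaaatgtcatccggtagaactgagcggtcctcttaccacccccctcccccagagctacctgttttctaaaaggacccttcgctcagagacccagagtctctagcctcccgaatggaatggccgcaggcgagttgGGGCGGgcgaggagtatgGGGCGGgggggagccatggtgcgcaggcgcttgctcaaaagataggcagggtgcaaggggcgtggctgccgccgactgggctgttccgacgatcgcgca
Sv2a: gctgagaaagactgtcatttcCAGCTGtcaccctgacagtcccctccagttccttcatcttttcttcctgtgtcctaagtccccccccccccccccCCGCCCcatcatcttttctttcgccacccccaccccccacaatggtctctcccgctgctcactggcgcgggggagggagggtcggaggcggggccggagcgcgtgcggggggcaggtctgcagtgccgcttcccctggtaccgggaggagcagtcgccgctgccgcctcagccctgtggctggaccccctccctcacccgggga
Rab3a: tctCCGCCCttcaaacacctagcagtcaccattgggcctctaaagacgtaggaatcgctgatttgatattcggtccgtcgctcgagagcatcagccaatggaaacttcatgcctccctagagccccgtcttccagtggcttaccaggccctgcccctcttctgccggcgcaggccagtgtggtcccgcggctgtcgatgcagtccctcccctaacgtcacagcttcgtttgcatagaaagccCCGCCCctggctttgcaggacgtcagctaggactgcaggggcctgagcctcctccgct
Syn1: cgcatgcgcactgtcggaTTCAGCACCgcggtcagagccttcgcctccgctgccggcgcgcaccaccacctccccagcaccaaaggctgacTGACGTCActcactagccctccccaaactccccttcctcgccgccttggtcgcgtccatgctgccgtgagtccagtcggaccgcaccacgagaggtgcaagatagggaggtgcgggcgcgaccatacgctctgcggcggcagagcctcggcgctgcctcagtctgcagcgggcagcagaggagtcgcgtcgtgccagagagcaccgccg

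The table of start regions held 28 of the 37 genes with 38 windows of 300 bases. A GC box was found in 23 of the 38 windows (60.5%) and in 35.7% of all 32851 windows, and an E-box in 15 (39.5%) against 16.3%. Windows of a gene can overlap, as for Syt6, and are not independent. By gene, 21 of the 28 had a GC box and 13 an E-box, with no share by gene over all genes beside them. The windows of these genes were also richer in G and C, with a median of 61.2% against 52.7%. The cAMP response element, bound by CREB, was found in the Syn1 window alone among the 38, and in 1.79% of all windows. The RE1 core, part of the element bound by the neuronal repressor REST, was in the windows of Syn1 and Unc13a and in 0.371% of all windows. A TATA box (TATAAA) was in 3 windows (7.89%), of Rab3b and Sv2b, against 13.6%, and the NRF1 motif in 5 (13.2%), of Pclo, Bsn, Nsf, Syngr1 and Syp, against 4.60%. A match says only that these letters stand in the window.

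Syt1, the calcium sensor of fast synchronous release, was not higher in every mature cluster. In the order control 1 and 2, occluded 1 and 2, trained 1 and 2, it stood at 156, 118, 116, 105, 155 and 142 CPM in n04-Immature. In n03-GC-1 it stood at 146, 116, 129, 152, 229 and 120.0 CPM. The libraries of both clusters overlapped, and n03-GC-1 was the higher in 3 of 6, with 1.12 times the level of n04-Immature. The other 9 mature clusters were above n04-Immature without overlap. The lowest of them was n02-PGC-1 with 499.9 ± 94.2 CPM, followed by n05-PGC-2 (765 ± 142), n09-GC-3 (915 ± 188) and n11-GC-5 (953 ± 84.9), and the highest were n14-GC-7 (1528 ± 207), n07-GC-2 (1756 ± 114) and n12-GC-6 (1833 ± 180.0), an order that reversed with mitochondrially encoded genes left out (2184, 2122 and 1960 CPM). Over all neurons the highest mean was in n17-M/TC-3, at 2474 ± 209.7 CPM, whose libraries overlapped those of n18-EPL-IN (2312 ± 653). Syt1 was also among the genes by which the study named its neuronal clusters, so its level in neurons against other cells is no finding.

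Rab3a, a small GTPase on vesicles that binds RIM proteins, took a different course. It was at 228, 199, 238, 183, 206 and 198 CPM in n04-Immature, in the same order of libraries, and at 532, 495, 591, 546, 578 and 558 CPM in n03-GC-1. So the cluster in which Syt1 overlapped its immature level had 2.64 times the Rab3a of n04-Immature, higher in 6 of 6 libraries. In n06-Transition Rab3a stood at 187, 168, 186, 165, 187 and 144 CPM, below n04-Immature within each library although the ranges touched, and in n07-GC-2 at 221 ± 30.9 CPM, overlapping it. Syt1 over the same clusters was at 1132 ± 179 CPM in n06-Transition and 1756 ± 114 CPM in n07-GC-2, 8.58 and 13.3 times its immature level. In n14-GC-7 Rab3a was at 277 ± 83.4 CPM. The mature clusters low in Rab3a, n07-GC-2 and n14-GC-7, were also shallow and rich in mitochondrial UMIs (17.4% and 29.7%). Over the 10 mature clusters, which share libraries, the Rab3a level had a Pearson correlation of 0.91 with the log2 median of UMIs per cell and -0.84 with the mitochondrial percent, and Syt1 of -0.04 and 0.37.

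**Figure D2:**
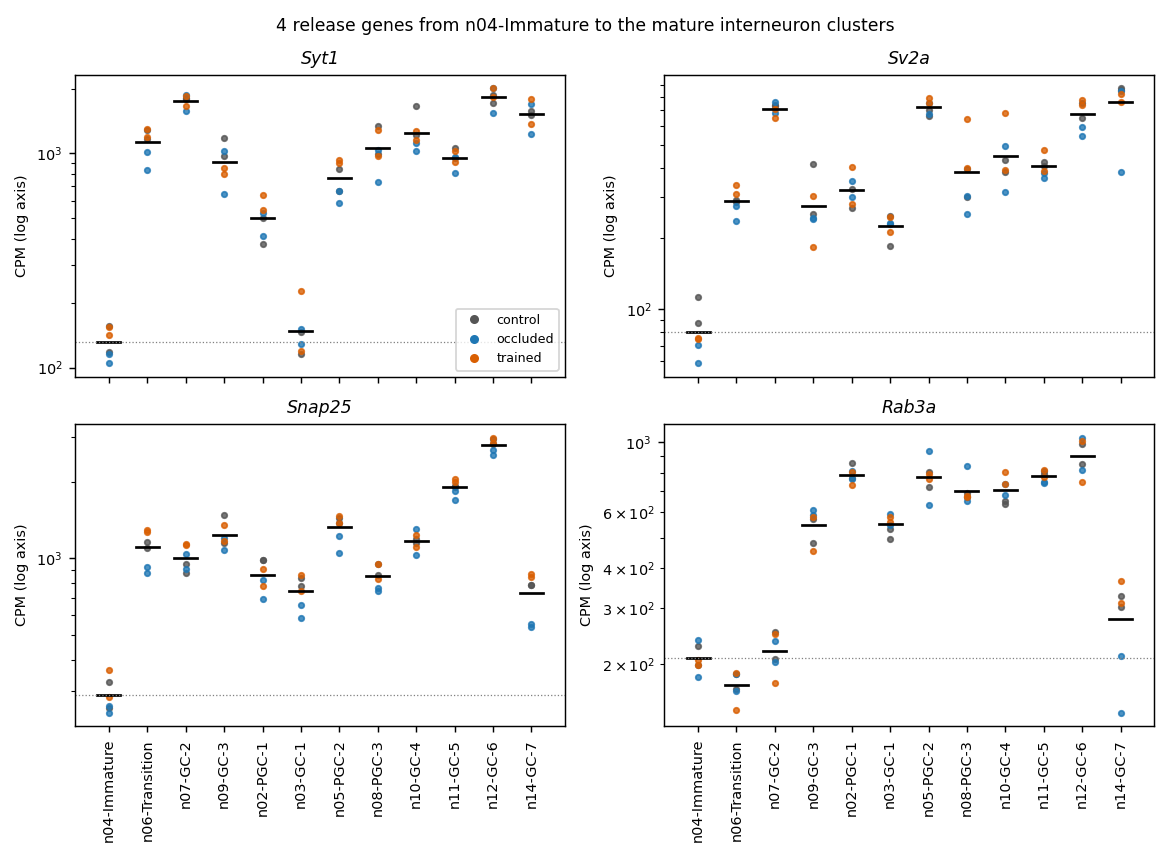
Levels of Syt1, Sv2a, Snap25 and Rab3a (y axes, CPM on log axes) in n04-Immature, n06-Transition and the 10 mature interneuron clusters (x axis), with the 6 libraries as points colored by condition, means as black bars and the mean of n04-Immature as a dotted line. Syt1 in n03-GC-1 (116 to 229 CPM) overlaps n04-Immature (105 to 156 CPM), and the mean of Rab3a in n06-Transition (173 CPM) lies under that of n04-Immature (209 CPM).

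Depth differs between these clusters, so the balance was also given as the share of Syt1 among the UMIs of Syt1 and Rab3a together. The share was 38.6 ± 3.80% in n04-Immature, 21.0 ± 3.99% in n03-GC-1, 86.5 ± 2.32% in n06-Transition, 88.8 ± 1.89% in n07-GC-2 and 84.7 ± 3.94% in n14-GC-7 (SD, n = 6 libraries). The remaining mature clusters lay between 38.5% (n02-PGC-1) and 66.9% (n12-GC-6). So the share was highest in the transition cluster and in the clusters n07-GC-2 and n14-GC-7. Among cells with at least 1000 UMIs the shares were 18.9% in n03-GC-1, 87.0% in n06-Transition, 86.8% in n07-GC-2 and 85.7% in n14-GC-7, the last from 62 UMIs of Syt1 and 11 of Rab3a. After thinning each cell to 500 UMIs, 6.06% of cells in n04-Immature, 7.0% in n03-GC-1, 42.9% in n06-Transition and 56.5% in n07-GC-2 had a Syt1 UMI, and 3.37% of the endothelial cluster EC1, which should lack it and had a median of 1621 UMIs. Without thinning the shares were 17.7%, 16.6%, 56.0%, 76.4% and 11.8%. Both ways n03-GC-1 stood close to n04-Immature in Syt1. For Rab3a the thinned shares were 10.1%, 21.7%, 8.49% and 9.95% in the same neuronal clusters and 3.37% in EC1. With mitochondrially encoded genes left out, Rab3a was at 229 CPM in n04-Immature, 205 in n06-Transition, 267 in n07-GC-2, 395 in n14-GC-7 and 599.6 in n03-GC-1, and Syt1 at 145, 1342, 2122, 2184 and 162 CPM. Among cells with at least 1000 UMIs, Rab3a was at 208 CPM in n04-Immature, 155 in n06-Transition and 257 in n07-GC-2.

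The other synaptotagmins differed in where they were found. Syt4, a form on dense-core vesicles, was highest in n18-EPL-IN, at 688, 951, 737, 667, 459 and 583 CPM, above every library of the next cluster n16-M/TC-2 (273 to 452 CPM). Among adult-born clusters it ran from 24.7 ± 23.3 CPM in n09-GC-3 to 331 ± 44.1 CPM in n08-PGC-3, against 32.0 ± 6.52 CPM in n04-Immature. Syt5 was highest in n09-GC-3 (231 ± 77.6 CPM). Syt6 was at 110.0 ± 18.6 CPM in n04-Immature and 479 ± 65.9 CPM in n12-GC-6, but at 9.05 ± 5.93 CPM in n02-PGC-1 and 22.3 ± 9.60 CPM in n03-GC-1. These clusters were below n04-Immature in all 6 libraries, so Syt6 counted as early in the mean while clusters on either side of its immature level made up that mean. Syt7, the slow high-affinity sensor, was in the same way at 12.4 ± 3.37 CPM in n03-GC-1, below n04-Immature (27.2 ± 4.95 CPM) in 6 of 6, and at 422 ± 70.5 CPM in the dopaminergic cluster n05-PGC-2. Among mitral and tufted clusters, n17-M/TC-3 had 676 ± 80.2 CPM of Syt7, and n15-M/TC-1, with 6 to 23 cells per library, had 841 ± 486 CPM. Syt13 was at 3.12 ± 1.52 CPM in n04-Immature and 74.4 ± 13.7 CPM in n10-GC-4. Syt11, a form that does not bind calcium, was at 170.1 ± 13.6 CPM in n04-Immature and 1064 ± 295 CPM in n18-EPL-IN. Doc2b, another calcium sensor, had at most 7.07 CPM in a neuronal cluster, and that from 1 library.

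Of the SNARE proteins, Snap25 was highest in n12-GC-6, at 2813, 2954, 2541, 2671, 2855 and 2984 CPM. All 6 values were above those of the next cluster, n11-GC-5 (1704 to 2049 CPM), and n04-Immature had 291 ± 45.3 CPM. Every mature cluster exceeded n04-Immature in Snap25 without overlap. Vamp2, the vesicle SNARE synaptobrevin-2, was likewise highest in n12-GC-6 (736 ± 109 CPM) without overlap with n11-GC-5 (554 ± 34.4 CPM), and n04-Immature had 143 ± 21.4 CPM. Vamp1 stayed low, at most 29.8 ± 36.0 CPM (n15-M/TC-1). Stx1a had 18.6 ± 5.70 CPM in n04-Immature and 59.8 ± 12.4 CPM in n11-GC-5, and its highest mean, 83.4 ± 106 CPM in n15-M/TC-1, came from 3 libraries with the other 3 at 0. Nsf, the ATPase that takes spent SNARE complexes apart, was at 53.1 ± 4.33 CPM in n04-Immature and 294 ± 38.8 CPM in n12-GC-6. Its highest mean was 342 ± 74.8 CPM in n17-M/TC-3, a mitral and tufted cell cluster outside the mature clusters of the adult-born series. Its adaptor Napb (beta-SNAP) was at 79.3 ± 17.4 CPM in n04-Immature and 613 ± 92.4 CPM in n12-GC-6.

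n12-GC-6 held the highest mean of 7 genes (Syt6, Snap25, Vamp2, Syn1, Cplx1, Rab3a and Napb). n18-EPL-IN held that of 8 genes (Syt4, Syt11, Syt13, Syp, Sv2a, Syngr1, Syngr3 and Rph3a), n15-M/TC-1 of 7 (Syt7, Stx1a, Vamp1, Rims1, Rims2, Unc13a and Pclo) and n17-M/TC-3 of 5 (Syt1, Sv2b, Rab3b, Nsf and Bsn). The remaining 10 genes were spread over 8 other clusters, Syn2 and Amph in n05-PGC-2, Rab3c and Unc13c in n08-PGC-3, Cplx3 in n03-GC-1, Sv2c in n07-GC-2, Syt5 in n09-GC-3, Cplx2 in n10-GC-4, Snap91 in n11-GC-5 and Doc2b in n14-GC-7. Of the 36 genes that reached 20 CPM in a neuronal cluster, 6 (Syt4, Snap25, Vamp2, Sv2a, Unc13c and Pclo) had a highest cluster that did not overlap the next, where 5.74% of 10677 genes past the same level did. How many of all genes have their highest mean in n12-GC-6, n18-EPL-IN, n15-M/TC-1 or n17-M/TC-3 was not counted. The counts of genes by highest cluster therefore have no background beside them. n15-M/TC-1 (6 to 23 cells per library) and n18-EPL-IN (16 to 36) were small, and n12-GC-6 was the deepest cluster. Over the 10 mature clusters, as for Rab3a, the Pearson correlation with the log2 median of UMIs per cell was 0.90 for Vamp2, 0.74 for Snap25 and 0.72 for Nsf. The correlation with the mitochondrial percent was 0.80 for Syt11, 0.75 for Syngr3 and 0.65 for Syp. The part of depth and of mitochondrial UMIs in these levels was not tested.

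**Figure D3:**
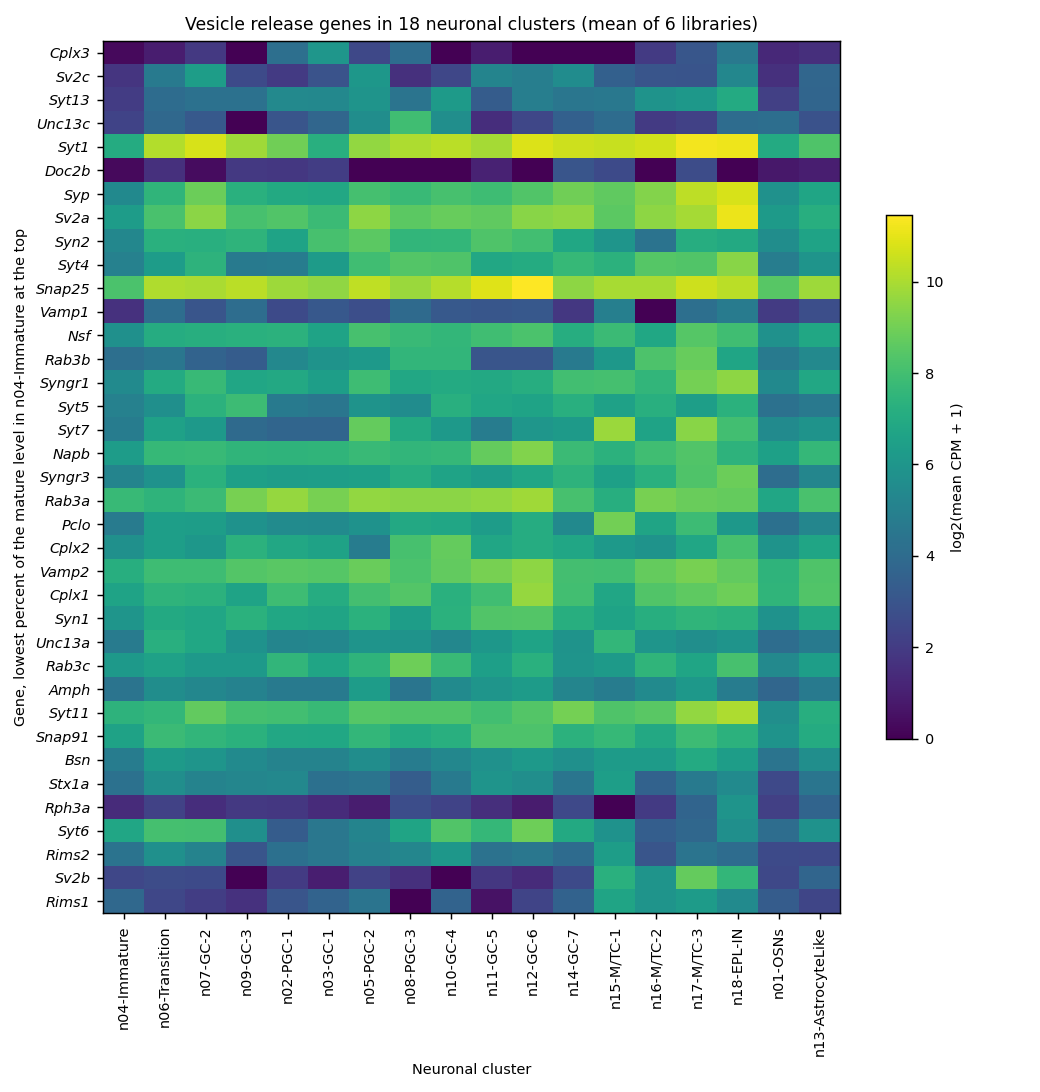
Level of each of the 37 genes (rows, ordered from the lowest percent of the mature level in n04-Immature at the top) in each of the 18 neuronal clusters (columns), as log2(mean CPM + 1) over 6 libraries, with brighter colors for higher levels. Along a row, Syp and Sv2a are brightest in n18-EPL-IN, Snap25 and Vamp2 in n12-GC-6 and Sv2b in n17-M/TC-3. Rows are read one at a time.

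Complexins were divided between clusters. Cplx2 made up 72.3 ± 9.18% of complexin UMIs in n10-GC-4 and 61.2 ± 13.3% in n09-GC-3, while Cplx1 made up 85.2 ± 4.95% in n12-GC-6 and 88.5 ± 6.12% in n05-PGC-2 (SD, n = 6 libraries). In n04-Immature the shares were 64.5 ± 8.54% for Cplx1 and 35.3 ± 8.49% for Cplx2. By level, Cplx2 was at 428 ± 145 CPM in n10-GC-4 and 26.8 ± 15.8 CPM in n05-PGC-2, and Cplx1 at 152 ± 30.1 and 794 ± 136 CPM in n10-GC-4 and n12-GC-6. Cplx3, a form best known from ribbon synapses, was found mainly in n03-GC-1, at 51.1, 72, 67.7, 48.3, 43.7 and 96.9 CPM. There it was 21.3 ± 5.55% of complexin UMIs, and its next highest share was 4.84 ± 2.28%, in n02-PGC-1. In n04-Immature 5 of 6 libraries had no Cplx3 UMI and the sixth 1.28 CPM.

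**Figure D4:**
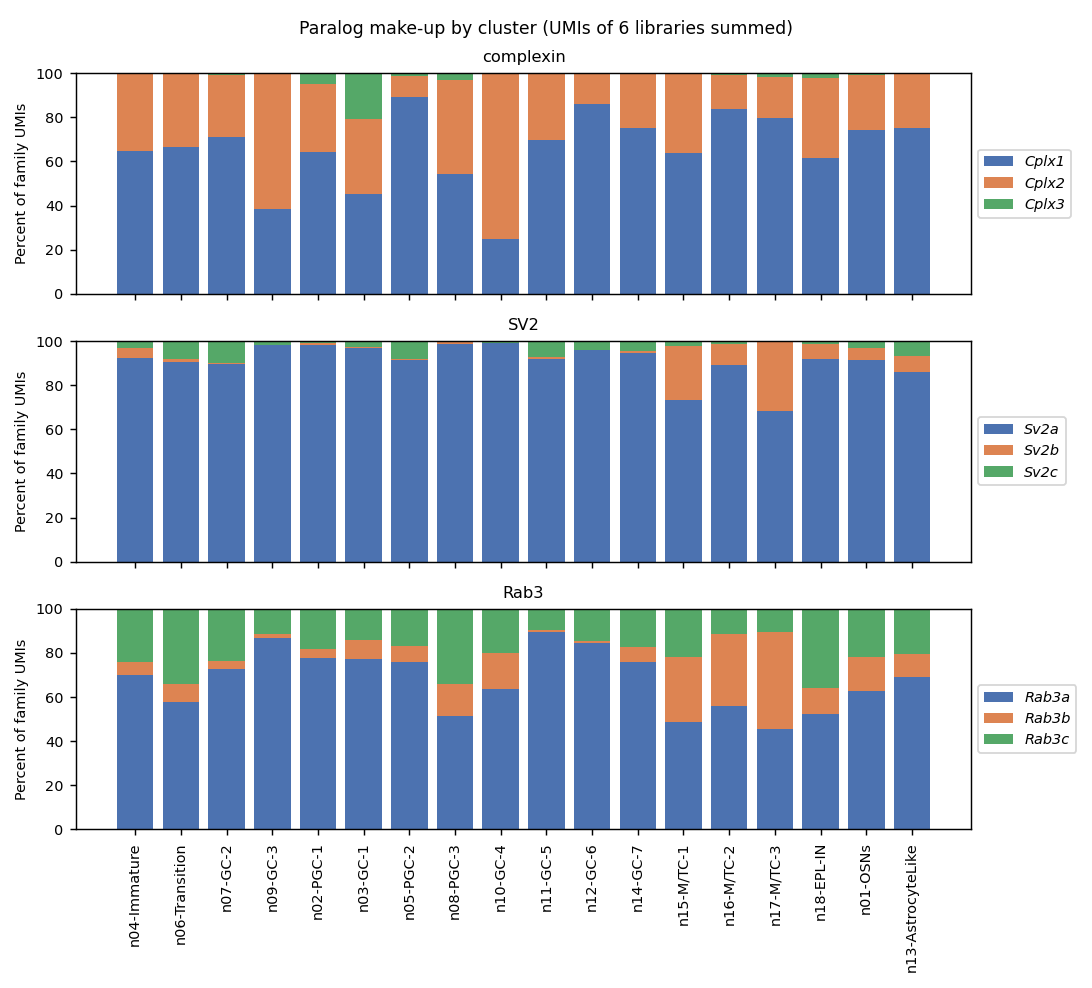
Stacked shares of the paralogs among the UMIs of complexins, SV2 and Rab3 genes (y axes, percent) in the 18 neuronal clusters (x axis), with the UMIs of the 6 libraries summed. In these sums Cplx3 makes up 20.7% in n03-GC-1, Cplx2 75.4% in n10-GC-4, Sv2b 31.3% in n17-M/TC-3 and Rab3b 44.1% in n17-M/TC-3.

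Among vesicle membrane proteins, synaptophysin (Syp) stood at 41.8 ± 3.79 CPM in n04-Immature, 182 ± 6.21 CPM in n06-Transition and 464 ± 74.8 CPM in n07-GC-2, so the transition cluster had 39.2% of the level of n07-GC-2. Sv2a, a vesicle glycoprotein and the target of the drug levetiracetam, ran in the same way from 79.8 ± 18.4 over 289 ± 33.9 to 712 ± 40.3 CPM, 40.7% of n07-GC-2 in the transition cluster. Syt1 stood at 64.5% of n07-GC-2 there, Snap25 at 109.6% and Vamp2 at 101%. n07-GC-2 was itself low in Vamp2, at 1.66 times n04-Immature, where the mature mean was 2.80 times. Whether n06-Transition comes before n07-GC-2 in time was not tested. Both Syp and Sv2a were highest in n18-EPL-IN, Sv2a at 3052, 1789, 1659, 2282, 1988 and 2566 CPM, above all libraries of n17-M/TC-3 (698 to 1133 CPM). Syp was at 1754 ± 379 CPM in n18-EPL-IN and overlapped n17-M/TC-3 (1287 ± 187 CPM).

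Sv2b was highest in the mitral and tufted cluster n17-M/TC-3, followed by n18-EPL-IN (190.2 ± 138 CPM). It stood at 512, 566, 322, 373, 404 and 357 CPM in n17-M/TC-3 and made up 30.6 ± 3.34% of SV2 UMIs there, whereas n04-Immature had 4.41 ± 2.95 CPM and n07-GC-2 4.95 ± 2.39 CPM. Sv2c was highest in n07-GC-2, at 81.5 ± 22.6 CPM, overlapping n05-PGC-2 (66.1 ± 30.6 CPM). The synaptogyrins, tetraspan proteins related to synaptophysin, were highest in n18-EPL-IN, with Syngr1 at 728 ± 173 and Syngr3 at 465 ± 128 CPM. The synapsin Syn1 was at 62.6 ± 6.01 CPM in n04-Immature, 326 ± 22.9 CPM in n11-GC-5 and 331 ± 49.0 CPM in n12-GC-6. Syn2 was above n04-Immature (39.0 ± 8.15 CPM) in all 10 mature clusters without overlap, with 383 ± 51.0 CPM in n05-PGC-2 and 275 ± 44.7 CPM in n03-GC-1. Syn2 formed 72.5 ± 6.59% of the UMIs of both synapsins in n03-GC-1 and 38.2 ± 4.82% in n04-Immature.

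Rab3b made up 43.1 ± 8.11% of Rab3 UMIs in n17-M/TC-3, with 446 ± 146 CPM, and 0.811% in n11-GC-5. Rab3c was highest in n08-PGC-3, at 482 ± 79.4 CPM and 35.7 ± 6.89% of Rab3 UMIs, while the libraries of n07-GC-2 (69.4 ± 24.2 CPM) and n04-Immature (71.7 ± 10.6 CPM) overlapped. Rph3a, the Rab3 effector rabphilin, had 1.69 ± 0.696 CPM in n04-Immature and 59.5 ± 49.7 CPM in n18-EPL-IN, where a library had 0 and another 147.

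In the active zone, the mean of Unc13a (Munc13-1), which primes vesicles, was higher in the transition cluster than in n07-GC-2, though n07-GC-2 was the higher in 1 of 6 libraries. Unc13a was at 26.2 ± 5.41 CPM in n04-Immature and at 149.6 ± 32.5 CPM in n06-Transition, 5.71 times as high, and at 111 ± 24.2 CPM in n07-GC-2. Among neurons its paralog Unc13c was highest in n08-PGC-3, at 290.0, 275, 344, 189, 141 and 246 CPM, with no overlap with the next neuronal cluster (n10-GC-4, 13.9 to 109 CPM). It formed 82.0 ± 10.7% of the UMIs of both paralogs there. Rims1 and Rims2 encode RIM scaffolds. Rims1 was highest in mitral and tufted cells, where n15-M/TC-1 had 104 ± 34.8 and n17-M/TC-3 had 77.1 ± 41.1 CPM, with 13.7 ± 4.93 CPM in n04-Immature and 0.477 ± 0.742 CPM in n11-GC-5. Rims2 was at 19.7 ± 3.57 CPM in n04-Immature and 66.6 ± 31.2 CPM in n10-GC-4. The giant scaffolds bassoon and piccolo differed, with Bsn at 26.9 ± 3.63 CPM in n04-Immature and at most 127 ± 56.2 CPM (n17-M/TC-3), and Pclo at 25.9 ± 5.60 CPM and 511 ± 119 CPM in n15-M/TC-1, which lay above all libraries of n17-M/TC-3 (138 to 317 CPM). Of the retrieval genes, Snap91 was at 95.1 ± 13.9 CPM in n04-Immature and 307 ± 28.9 CPM in n11-GC-5, and amphiphysin (Amph) at 20.3 ± 5.84 CPM and 79.7 ± 22.0 CPM in n05-PGC-2.

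Counted by cluster, between 14 genes (n09-GC-3) and 27 genes (n12-GC-6) of the 37 were above n04-Immature in all 6 libraries, and 27 in n06-Transition. Over all genes of at least 20 CPM the share was 15.4% in n09-GC-3, 25.6% in n12-GC-6 and 35.8% in n06-Transition. In each of the 10 mature clusters between 0 and 3 of the 37 genes were below n04-Immature in all 6, against 13.4% (n09-GC-3) to 35.3% (n07-GC-2) of all genes of at least 20 CPM.

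Outside neurons, glia, microglia and mural cells held some of these genes. Syt11 was at 1104 ± 81.2 CPM in myelinating oligodendrocytes (MyOligo) and 714 ± 57.5 CPM in oligodendrocyte precursors (OPC), against 43.2 ± 9.51 CPM in EC1. Syngr1 was at 526 ± 15.7 CPM in MicroG2, 493 ± 30.6 CPM in MicroG1 and 277 ± 9.85 CPM in the ensheathing cluster OEC1. Cluster names are those of the deposited annotation. Its MicroG1 held 790 cells, a number the study's supplement gives for MicroG2, so the microglia numbering differs. Sv2a was at 243 ± 29.3 CPM in MyOligo, Syn2 at 104 ± 23.8 CPM in OPC and Rph3a at 34.1 ± 15.5 CPM in OPC. Unc13c was at 47.5 CPM in the mural cluster Mural2 and 38.1 CPM in Mural1. These values are means over the same 6 libraries.

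The design's second question was whether olfactory experience changed these genes. Counts summed per library were tested with edgeR's quasi-likelihood test in the 14 neuronal clusters with at least 20 cells in each library, with adjustment over all genes tested in a cluster. In these clusters 34 genes were tested in at least 1 cluster, 12 in all 14, and Vamp1, Rph3a and Doc2b in none, giving 341 tests per comparison. The 3 comparisons share libraries. Below, the CPM of tested genes in single libraries are scaled by edgeR's TMM factors, and so differ from the CPM above.

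Between occluded and control libraries 0 of the 341 tests passed an adjusted p of 0.05 in edgeR and 0 in DESeq2, where over all genes 0.0974% did. At an unadjusted p under 0.05 there were 31 tests in edgeR (9.09%, against 5.29% of all tests) and 9 in DESeq2. The DESeq2 count has no share over all genes beside it. The log2 fold change was below 0 in 235 of the 341 tests, with a median of -0.14. The median over these genes was below 0 in 13 of 14 clusters, from -0.38 (n14-GC-7) to 0.03 (n05-PGC-2), where the medians of all genes ran from -0.01 to 0.01. Complexin 1 (Cplx1) was lower in 13 of 14 clusters with a median log2 fold change of -0.36, 4 tests under 0.05 unadjusted and a smallest adjusted p of 0.778. Snap25 was lower in 13 of 14 (median -0.22), Syt1 in 12 of 14 (-0.28) and Rab3c in 10 of 12 (-0.44), and none of these passed. Other genes did not run lower, with Nsf below control in 7 of 14 clusters (median near 0), Vamp2 in 5 of 14 (0.06) and Stx1a in 1 of 6 (0.42). In n12-GC-6 Nsf was at 354 and 356 CPM in control and 414 and 399 CPM in occluded libraries, scaled by TMM factors (edgeR adjusted p = 0.999983). Clusters of a library share its mice and its free RNA, so they are not independent. The summed free RNA level of the 37 genes was 1160 and 1053 CPM in the control libraries, 930.2 and 865 CPM in the occluded and 1324 and 887 CPM in the trained libraries, and its part in the lower values was not tested.

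Between trained and control libraries 0 tests passed in edgeR or DESeq2 (0.051% over all genes), 19 were under 0.05 unadjusted in edgeR (5.57%, against 5.41%) and 5 in DESeq2, and the median log2 fold change was 0.02. Between trained and occluded libraries 2 of 341 tests passed in edgeR, both higher in trained, and 0 in DESeq2, where 0.193% of all tests passed in edgeR. At an unadjusted p under 0.05 there were 45 tests in edgeR (13.2%, against 7.26%) and 11 in DESeq2. The 5 and 11 of DESeq2 have no share over all genes beside them. The median log2 fold change was 0.14, and the cluster medians were above 0 in all 14 clusters, between 0.05 and 0.37, where the medians of all genes ran from -0.01 to 0.02.

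The first test that passed was Syn2 in n12-GC-6, where 0.402% of genes passed. Syn2 was at 318 and 307 CPM in control, 215 and 174 CPM in occluded and 442 and 402 CPM in trained libraries, scaled by TMM factors. The 3 groups did not overlap, with the controls between the others. The log2 fold change was 1.12 (SE 0.27, edgeR adjusted p = 0.0208). The call was lost in DESeq2 (adjusted p = 0.999868), without a low-count filter (0.133), in a fit of the 2 groups alone (0.146), with the replicate number, which is also the sex, as a block (0.116), and without occluded replicate 2 (0.219), trained replicate 1 (0.639) or control replicate 1 (0.0700). The log2 fold change lay between 0.97 and 1.13 over these alternatives, and was 1.28 without occluded replicate 1.

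The second was Cplx2 in n17-M/TC-3, where 0.159% of genes passed. It was at 79.6 and 78.5 CPM in control, 54.8 and 61.1 CPM in occluded, and 86.8 and 383 CPM in trained libraries, with a log2 fold change of 2.00 (SE 0.42, edgeR adjusted p = 0.0302). Trained replicate 2 stood far above the other 5 libraries. Of its 52 Cplx2 UMIs in 96 cells, 43 (82.7%) were in 1 cell of 15309 UMIs, and only 6 of all 927 cells of the cluster had at least as many UMIs, that cell included. So 1 cell held most of the count behind the difference. Leaving out that cell gave a log2 fold change of 0.49 (SE 0.42, edgeR adjusted p = 0.804), and leaving out the library 0.61 (adjusted p = 0.877).

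**Figure D5:**
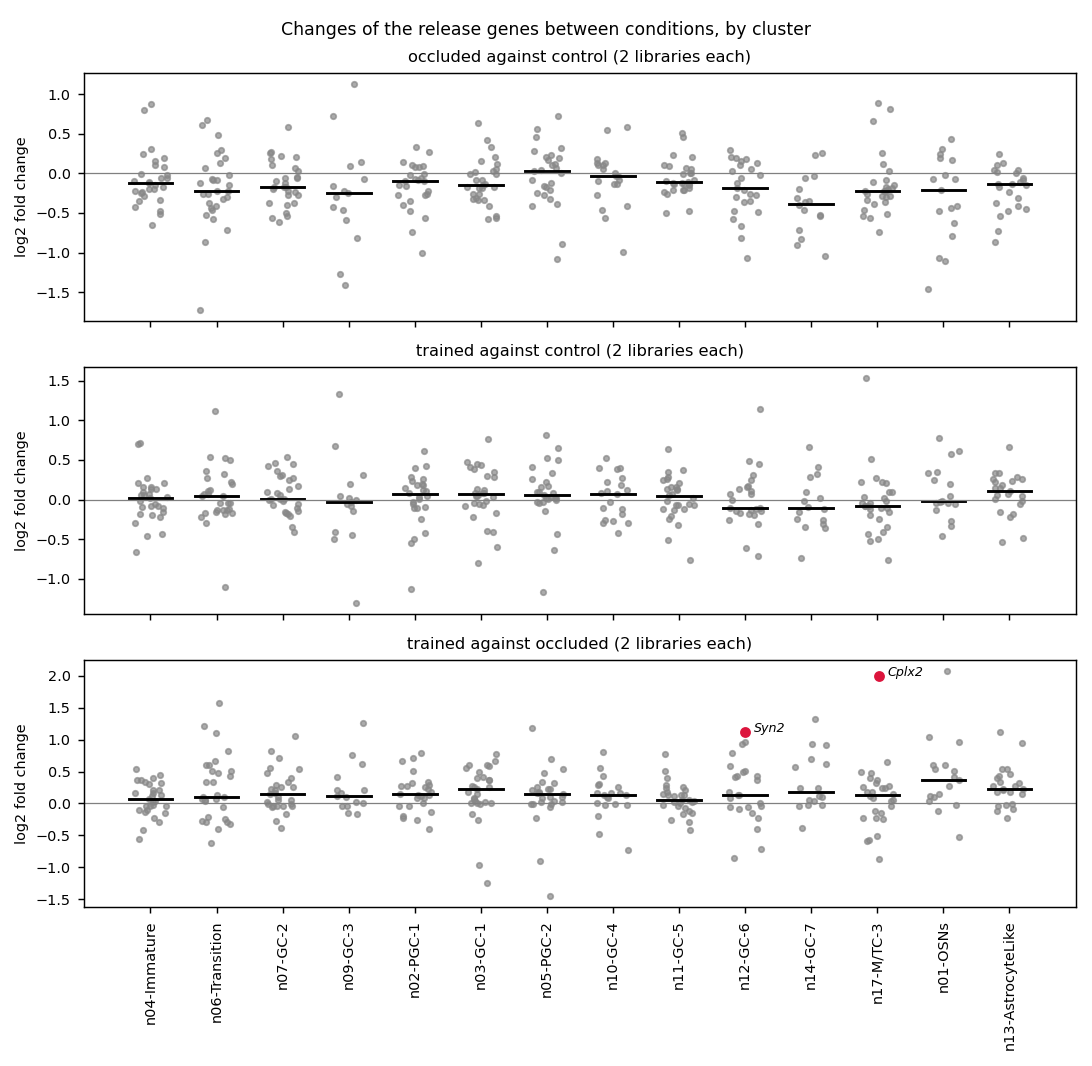
Log2 fold changes (y axes, edgeR) of the tested genes in 14 neuronal clusters (x axis) for the 3 comparisons of 2 libraries against 2, with genes as points, their median as a black bar and the tests that passed in red (Syn2 and Cplx2). For occluded against control the medians lie below 0 in 13 of 14 clusters, and for trained against occluded above 0 in all 14.

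Of 86 other genes of the vesicle cycle, 84 were in the table and 78 were tested, in 624 tests per comparison. Between occluded and control 0 passed in edgeR, with 37 under 0.05 unadjusted (5.93%, against 5.29% of all tests). Between trained and control 0 passed, with 29 under 0.05 (4.65%, against 5.41%). Between trained and occluded 2 passed, where 0.193% of all tests did, and 58 were under 0.05 (9.29%, against 7.26%). Both tests that passed were of Syt10, a synaptotagmin that triggers release of IGF1 in mitral cells. In n06-Transition, where 0.116% of genes passed, it was at 265 and 241 CPM in control, 76.3 and 143 CPM in occluded and 328 and 353 CPM in trained libraries (log2 fold change 1.6, SE 0.28, edgeR adjusted p = 8.48e-05). In n11-GC-5, where 0.414% of genes passed, it was at 105 and 119 CPM, 71.5 and 82.8 CPM, and 171 and 135 CPM (log2 fold change 0.99, SE 0.20, adjusted p = 0.0148). In both clusters the groups did not overlap, with occluded lowest and trained highest. The n06-Transition call was lost in DESeq2 (adjusted p = 0.0717), without occluded replicate 1 (0.172) and among cells with at least 1000 UMIs (0.969, log2 fold change 0.83). The n11-GC-5 call was lost in DESeq2 (0.618) and without occluded replicate 1 (0.0905) or trained replicate 1 (0.433).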

How the data were processed

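Cells of 6 libraries were captured with the 10x Chromium 3′ v2 chemistry, and the authors made UMI counts per gene and barcode with Cell Ranger 2.0.0 and clustered the cells with Seurat 2.2.1, on mm10 per the submitters' processing notes. They removed doublets, and no further removal was done here. The deposited counts were not normalized, and the authors also deposited a fraction of mitochondrial UMIs per cell and 2 annotations of clusters, which were used as given. A deposited table of normalized values was not used here. For both trained libraries the prefix of a cell name and the library column of the annotation name different replicates, and the column was followed.

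The 37 genes, the other gene lists and the marker lists were chosen with earlier results of these data known. Every listed gene is accounted for in the text, and other vesicle cycle genes are given as counts, with those that passed named. Counts were summed per library and cluster and scaled to CPM (mean ± SD over 6 libraries). Conditions were compared with edgeR 4.0.16 in R 4.3.3 (quasi-likelihood test, TMM factors, filterByExpr, all 6 libraries in 1 fit, Benjamini-Hochberg adjustment per cluster and comparison). The SE of a log2 fold change was derived from its size and the F statistic. Alternatives were 13 settings of the condition tests, including DESeq2 1.42.0, and 14 of the levels, with 2 added after seeing the data (leaving out 1 cell, and leaving out each mature cluster). The scripts were tested on simulated data. Each library had 6705 to 10570 annotated cells. Clusters of few cells have a wide counting error.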

Additional observations from a re-analysis of the deposited data

Results flagged for a closer look

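The log2 fold change of Cplx2 between trained and occluded libraries had opposite signs in different clusters. In n17-M/TC-3 the log2 fold change was 2.00, with both trained libraries above both occluded ones, and in n04-Immature it was -0.42, with both trained libraries below both occluded ones and no call (edgeR adjusted p = 0.782). The difference between the clusters was not tested, and without 1 cell the value in n17-M/TC-3 was 0.49 (edgeR adjusted p = 0.804).

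The 1123 barcodes without an annotation, which enter no comparison, also carried the genes. Their summed level was between 2305 CPM (occluded replicate 2) and 3737 CPM (control replicate 1), in each library above the summed free RNA level of 865 to 1324 CPM. Syt1 was at 262 to 553 CPM and Snap25 at 372 to 647 CPM in these barcodes, with a median of 2134 to 2664 UMIs per barcode.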

How the results depend on the processing

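Of the condition tests between trained and occluded libraries, 2 passed. The count was 0 in DESeq2 and in a fit of the 2 groups alone, 1 without the low-count filter and 1 among cells with at least 1000 UMIs, and 1 to 4 when a library was left out (4 without control replicate 2, with Snap91 in n01-OSNs and Rab3c in n07-GC-2 added). Between trained and control the count of 0 became 1 without the low-count filter and 1 in a fit of the 2 groups alone, both Cplx2 in n17-M/TC-3, and 0 to 2 when a library was left out. Between occluded and control it was 0 to 2, the 2 being Rims1 and Sv2b in n17-M/TC-3 without occluded replicate 2. A fit with the replicate number as a block also gave 2 calls between trained and occluded, Cplx2 in n17-M/TC-3 (adjusted p = 0.00178) and Rab3c in n07-GC-2 (0.0236), while Syn2 in n12-GC-6 lost its call (0.116). The labels do not pair the libraries, the number also gives the sex, and deviations of same-numbered libraries correlated at between -0.01 and 0.19.

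Of the onset counts, 33 genes higher in the mature clusters became 24 when the 2 mature clusters n07-GC-2 and n09-GC-3 alone were taken as mature, and 32 to 34 otherwise. For these alternatives the share of all genes that were higher is not given. With these 2 clusters 10 of 28 placed genes were early and 5 late (75.1% and 7.41% of all genes), in place of 6 and 8 of 31 (79.7% and 5.62%), and with the free RNA level subtracted 2 were early and 16 late (50.5% and 31.1% of all genes). Summing the counts of all mature clusters gave 5 early and 6 late. The percent moved by more than its SD over libraries in 17, 21 and 7 of the 31 placed genes under these 3 alternatives, and in none when a library was left out. Leaving each mature cluster in turn out of the mature mean, an alternative chosen after seeing the data, gave 6 to 8 early, 6 to 8 late and 32 to 33 higher. Leaving out a library gave 6 to 7 early, 7 to 8 late, 33 to 34 higher and 27 to 29 above the free RNA level. Counts in this paragraph without a share of all genes do not show whether these genes differ from others under those choices. Small clusters and genes of few UMIs limit the precision.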
